A study of Mus musculus with 20 samples.

Results

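The 2 bortezomib-sensitive myeloma cultures were compared at 8 h of treatment with their own arrays at 0 and 2 h. The comparison took 6 of the 20 arrays of the series, chosen by title: lines 589bm and 595sp, each with 1 array at 0, 2 and 8 h. Both lines derive from multiple myeloma of mice carrying Bcl-XL and Myc transgenes, on a cross of the FVBN and BL/6 strains, and the labels name no promoter for either transgene. Bortezomib was given at 33 nM, the 0 h arrays had none, and each line also had a resistant culture followed over the same times. Total RNA was hybridised to Illumina bead arrays, and values below are log2 intensities after background correction and quantile normalisation. No drug-free array later than 0 h was analysed here, so the drug and the hours in culture cannot be told apart. Each array is 1 sample of 1 culture at 1 time, so no culture was repeated at any time. The p-values measure a spread that mixes 2 things. These are the step from 0 to 2 h within each line and the disagreement of the 2 lines at 8 h.

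Bortezomib blocks the chymotrypsin-like site of the 20S proteasome, the chamber in which cells degrade ubiquitin-tagged proteins. Cells that accumulate unfolded or undegraded protein are known to answer along several routes: HSF1 raises cytosolic chaperones, kinases of eIF2alpha start the integrated stress response through ATF4, and NRF1 (Nfe2l1) raises the proteasome subunits themselves. Plasma cells secrete large amounts of immunoglobulin and are known for a high load on protein folding and degradation.

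The leading genes at 8 h were chaperone genes and genes of the integrated stress response, and the proximal promoters of 6 of them are shown because they hold the binding motif named for their pathway. Capitals mark each match, on either strand, of the heat shock element core GAANNTTC or of the CEBP-ATF response element TGATGNAA. Sequences are RefSeq promoters (GRCm38.p6), written 5′ to 3′ on the strand of the gene.
Hspa1a, chr17:34972157-34972406, minus strand: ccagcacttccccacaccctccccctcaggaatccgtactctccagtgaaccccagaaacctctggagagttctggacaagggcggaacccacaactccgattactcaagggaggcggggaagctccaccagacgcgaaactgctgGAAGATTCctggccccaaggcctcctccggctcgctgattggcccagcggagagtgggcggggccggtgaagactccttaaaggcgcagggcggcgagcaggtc
Hspb1, chr5:135887669-135887918, plus strand: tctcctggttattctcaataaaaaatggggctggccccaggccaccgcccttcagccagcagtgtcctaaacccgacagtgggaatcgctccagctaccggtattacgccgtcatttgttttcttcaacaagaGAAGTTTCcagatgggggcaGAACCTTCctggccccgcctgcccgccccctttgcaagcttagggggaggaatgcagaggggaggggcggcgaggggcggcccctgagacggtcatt
Chac1, chr2:119350992-119351241, plus strand: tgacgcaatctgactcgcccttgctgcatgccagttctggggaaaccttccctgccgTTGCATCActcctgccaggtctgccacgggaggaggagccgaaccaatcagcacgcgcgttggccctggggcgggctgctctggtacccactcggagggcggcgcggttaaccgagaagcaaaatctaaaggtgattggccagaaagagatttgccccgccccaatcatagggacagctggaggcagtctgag
Nupr1, chr7:126625471-126625720, minus strand: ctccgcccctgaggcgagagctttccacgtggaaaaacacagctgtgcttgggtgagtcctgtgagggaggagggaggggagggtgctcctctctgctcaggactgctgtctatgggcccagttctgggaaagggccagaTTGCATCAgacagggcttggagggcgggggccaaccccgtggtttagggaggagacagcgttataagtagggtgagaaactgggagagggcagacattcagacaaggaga
Atf3, chr1:191183334-191183583, minus strand: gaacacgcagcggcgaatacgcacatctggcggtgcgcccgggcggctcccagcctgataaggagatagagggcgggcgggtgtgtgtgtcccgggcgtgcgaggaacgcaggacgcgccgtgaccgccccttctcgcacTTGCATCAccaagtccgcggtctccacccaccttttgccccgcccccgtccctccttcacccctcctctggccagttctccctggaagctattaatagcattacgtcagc
Trib3, chr2:152344028-152344057, minus strand: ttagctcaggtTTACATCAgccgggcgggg
The heat shock core lay 104 bases before the start of Hspa1a and 117 and 97 bases before that of Hspb1. The CEBP-ATF element lay 193 bases before the start of Chac1, 110 before those of Nupr1 and Atf3, and 15 after that of Trib3. Promoters were found for 24 of the 26 genes with the largest changes, all but Selplg and Tmem64.

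Over the whole comparison, 276 of 11802 genes tested (2.34%) were higher at 8 h and 263 (2.23%) were lower, by limma with Benjamini-Hochberg adjustment over 22641 probes and a threshold of 0.05. The rises were the steeper side. Of the genes that rose, 91 rose by over 1 on the log2 scale and 15 by over 2. Of those that fell, 39 fell by over 1, and the largest fall was -1.36. All 539 genes changed in the same direction in both lines, and in each line the 8 h array lay beyond both of its own early arrays. Over both lines together, the ranges of early and late arrays did not overlap for 237 of the genes that rose and 184 of those that fell. The genes were chosen on the same arrays, so the shared direction and the separated ranges describe them and are no further support. The matching shares of all genes tested are not given. The median change was 0.83 among the genes that rose and -0.78 among those that fell, against -0.004 over all genes tested.

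The count depends on the early arrays and on scaling. With the 0 h arrays alone as the early group 629 genes passed, 334 higher and 295 lower. Median scaling in place of quantile normalisation called 508 genes, of which 151 were higher and 357 lower, so 29.7% of the calls were rises in place of 51.2%. With the 2 h arrays alone as the early group 28 genes passed and with no term for line 6, all of them rises, and leaving out single arrays gave from 93 genes (without the 595sp 2 h array) to 1509 (without the 589bm 2 h array).

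The early arrays of a line were close but not equal. The median absolute log2 difference between 2 h and 0 h was 0.185 in 589bm and 0.122 in 595sp, and that between 8 h and 0 h was 0.192 and 0.210. In 589bm the 8 h array was therefore hardly farther from 0 h than the 2 h array was, over the median gene, while in 595sp it was. Before correction the median intensity of the 6 arrays ran from 149.1 to 207.8. Of 7 plasma cell markers, 5 were bright enough to be tested (Prdm1, Irf4, Xbp1, Sdc1, Mzb1), while Jchain and Tnfrsf17 were among the dimmer probes. By the same rule 4 of 6 B cell markers were kept (Cd79b, Ms4a1, Pax5, Cd22). So were 3 of 8 T cell, 5 of 9 macrophage, 2 of 6 erythroid and 4 of 7 stromal markers. Being kept therefore does not single out plasma cells. The summed log2 level of the 5 plasma cell markers was 46.1 to 48.4 on early arrays and 46.9 to 48.1 on late ones.

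**Figure D1:**
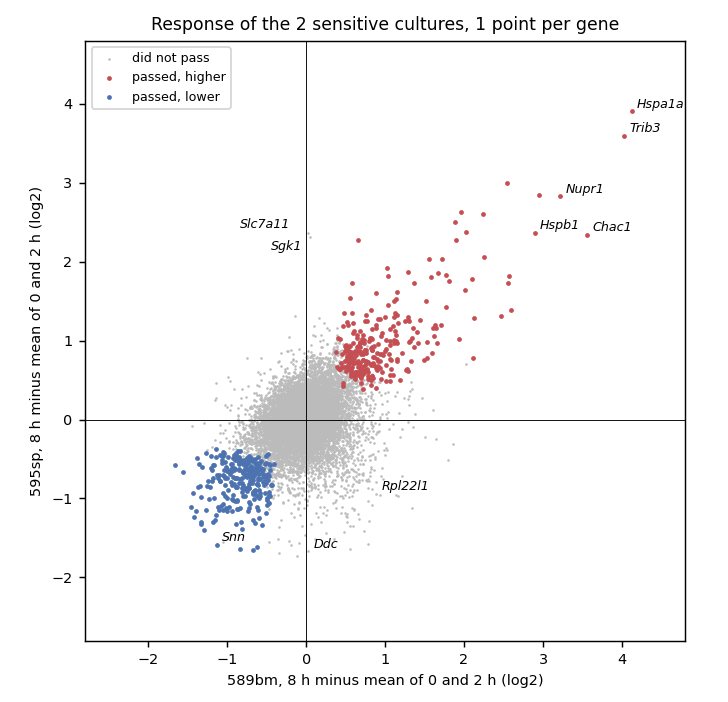
Log2 change at 8 h against the mean of 0 and 2 h in 589bm (horizontal) and 595sp (vertical), 1 point per gene, with genes that passed in red (higher) and blue (lower). Hspa1a and Trib3 lie farthest out in both lines, the genes that fell form a compact group nearer the origin, and Slc7a11 and Sgk1 lie high on the 595sp axis and near 0 on the 589bm axis.

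Cytosolic chaperones driven by HSF1 in other settings gave the largest single rise. Hspa1a, an inducible Hsp70, read 6.76, 7.01 and 11.01 at 0, 2 and 8 h in 589bm, and 6.65, 6.76 and 10.61 in 595sp. All 4 early arrays lay within a narrow band and both late arrays stood far above it. The change was 4.01 (SE 0.15, adjusted p = 3.61e-06 by limma). Its early intensities were low, where the background correction sets much of the size, and the change ran from 3.23 to 4.52 over the alternatives. Its neighbour Hspa1b read 6.53, 6.60 and 9.11 in 589bm and 6.39, 6.80 and 9.59 in 595sp, a change of 2.77 (SE 0.17, adjusted p = 8.46e-05). The products of these genes are nearly identical, and how far the probes read both transcripts was not tested. Other kept probes for the same genes changed by 1.08 and 2.46 (Hspa1a) and by 1.77 (Hspa1b), so the size of the rise depended on the probe.

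The small heat shock protein Hspb1, a holdase for unfolded client proteins, started from different levels in the 2 lines. It read 6.56, 6.71 and 9.53 in 589bm and 9.15, 9.26 and 11.57 in 595sp. The late array of 589bm only just exceeded the early arrays of 595sp, yet the lines rose by 2.89 and 2.37, or 2.63 on average (SE 0.16, adjusted p = 8.46e-05). The Hsp110 nucleotide exchange factor Hsph1 went from 10.84 and 10.22 to 13.09 in 589bm and from 11.44 and 11.55 to 13.23 in 595sp, a rise of 2.14 (SE 0.21, adjusted p = 0.00136). Constitutive Hsc70, Hspa8, rose by 0.70 (adjusted p = 0.0190) on a probe already near the top of the scale, from 13.92 to 14.51 early to 14.81 and 14.91 late.

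Among co-chaperones, the Hsp70 partner Bag3 rose from between 9.01 and 9.58 on the early arrays to 11.39 and 11.96, by 2.42 (SE 0.18, adjusted p = 0.000206). Dnajb1, the main J protein of stressed cells, rose by 1.60 (adjusted p = 0.000357) and Dnajb2 by 1.43 (adjusted p = 0.00435). Of the Hsp90 group, Chordc1 rose by 1.33, Stip1 by 0.94, Ahsa2 by 0.89 and Ahsa1 by 0.58. In all, 12 of 45 tested members of the 6 chaperone lists rose and none fell, against 2.34% of all genes for rises. The rises were unevenly spread: 3 of 4 inducible Hsp70 and small heat shock genes, 2 of 5 constitutive Hsp70 and Hsp110 genes, 3 of 11 J proteins and Bag factors, 4 of 12 Hsp90 genes, and 0 of 12 chaperonins and mitochondrial chaperones passed. Hspe1, the mitochondrial co-chaperonin, was the largest change of that last list at 0.78 (SE 0.44, adjusted p = 0.409), with arrays from 9.74 to 12.22 and overlapping groups. The 3 inducible genes passed under each alternative for the early arrays and each left-out array, and 2 of them with no block for line. The Hsp90 list had 0 calls with no block or with the 2 h arrays alone as the early group, and 1 without the 589bm 8 h or the 595sp 2 h array.

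**Figure D2:**
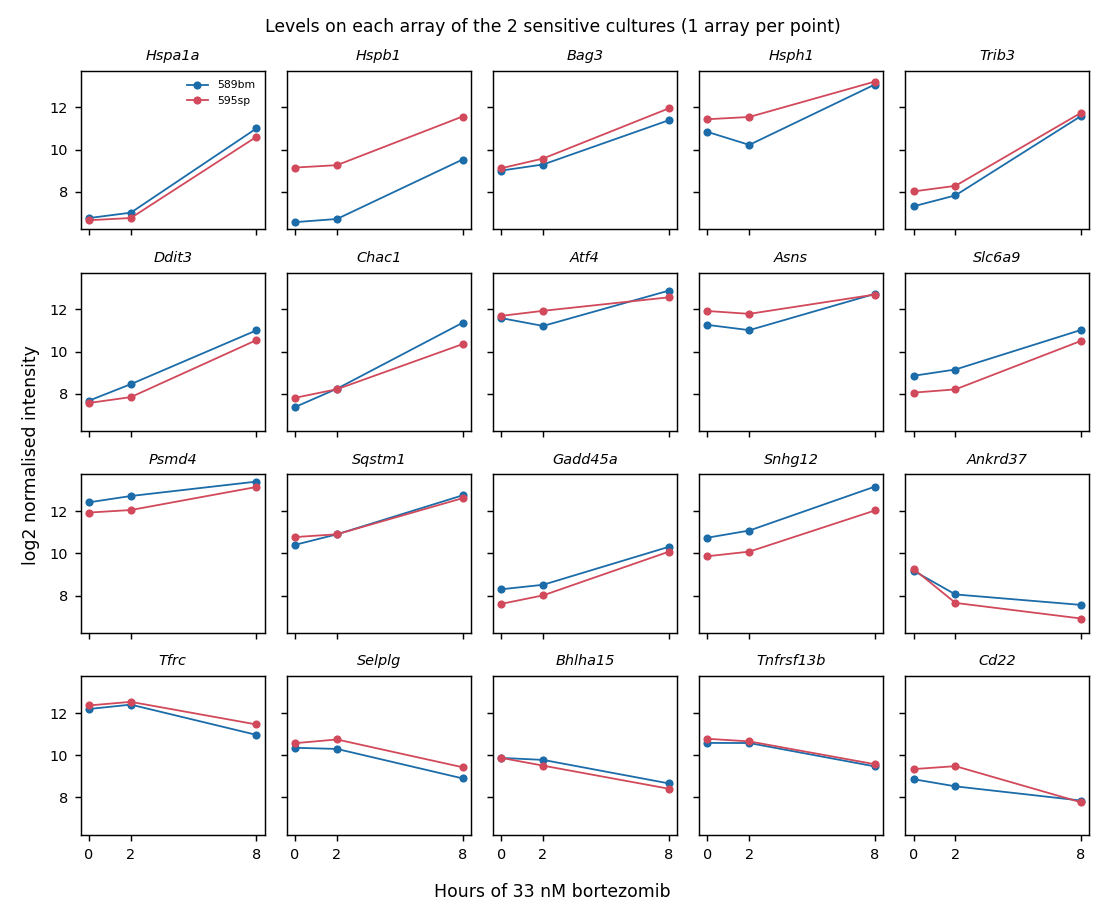
Log2 normalised intensity on each of the 6 arrays (1 array per point, no error bars) for 20 genes against hours of bortezomib, 589bm in blue and 595sp in red. Chaperone and stress response genes climb mainly between 2 and 8 h, Ankrd37 drops by 2 h, and Tfrc, Selplg, Bhlha15, Tnfrsf13b and Cd22 are lower at 8 h.

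Among the gene lists, which were chosen with earlier results of these data known, those of the integrated stress response held the largest group of rises. All 9 tested transcription factors and regulators of the response rose, against 2.34% of all genes tested, with a median change of 2.20. Trib3, a pseudokinase that feeds back on the pathway, read 7.31, 7.83 and 11.59 in 589bm and 8.02, 8.28 and 11.75 in 595sp. Late arrays stood above all early ones, and the change was 3.81 (SE 0.19, adjusted p = 2.62e-05). Nupr1, a small stress-induced chromatin protein, read 8.49, 9.04 and 11.98 in 589bm and 7.87, 7.95 and 10.74 in 595sp, a change of 3.02 (SE 0.18, adjusted p = 8.46e-05). Ddit3, which encodes the death-linked factor CHOP, read 7.67, 8.45 and 11.004 in 589bm and 7.56, 7.84 and 10.54 in 595sp, a change of 2.89 (SE 0.21, adjusted p = 0.000206). In 589bm its 2 h array was already above the 0 h array, while the 2 h array of 595sp was closer to its start.

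Atf3, a repressor and activator induced by ATF4, rose by 2.30 (SE 0.21) and Cebpb, a partner of CHOP, by 2.20 (SE 0.16). Atf4 itself, whose protein is known to be controlled mainly by translation, read 11.58, 11.21 and 12.89 in 589bm and 11.69, 11.93 and 12.57 in 595sp. Its late arrays lay above all early ones, and its change was 1.12 (SE 0.19, adjusted p = 0.0124). The upstream list of eIF2alpha kinases and translation factors had 0 of 6 genes past the threshold. Its largest change was 0.53 for Eif2s2 (adjusted p = 0.0911), a subunit of eIF2, with overlapping groups.

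Effector genes followed, with 9 of 13 tested genes higher, against 2.34% of all genes, and a median change of 0.94. Chac1, an enzyme that breaks down glutathione, read 7.37, 8.24 and 11.36 in 589bm and 7.80, 8.21 and 10.35 in 595sp. The 589bm 2 h array had moved part of the way, and the late arrays stood above all early ones. The change was 2.95 (SE 0.30, adjusted p = 0.00143). Gpt2, a mitochondrial alanine transaminase, rose by 1.69, Ppp1r15a, the phosphatase subunit that reverses eIF2alpha phosphorylation, by 1.54, and the mTORC1 inhibitor Sesn2 by 1.32.

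Of amino acid transporters 3 of 10 rose, against 2.34% of all genes. Slc6a9, the glycine transporter GlyT1, went from between 8.05 and 9.15 on early arrays to 11.02 and 10.50, a rise of 2.20 (SE 0.16, adjusted p = 0.000206). The cationic amino acid transporter Slc7a3 rose by 1.47 (SE 0.31, adjusted p = 0.0322) with 589bm at 6.89, 7.37 and 7.79 and 595sp at 8.32, 8.27 and 10.57, so its groups overlapped between lines. Slc1a4, a carrier of small neutral amino acids, rose by 1.16.

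Synthesis enzymes rose in 5 of 9 cases: Cth of the transsulfuration route by 1.45, asparagine synthetase Asns by 1.22, the mitochondrial folate enzyme Mthfd2 by 1.16, the proline-route enzyme Aldh18a1 by 1.10, and Shmt2. Of the cytosolic aminoacyl-tRNA synthetases, which charge tRNAs with their amino acids, 8 of 19 rose. The seryl enzyme Sars rose by 1.29, the alanyl enzyme Aars by 1.28, the asparaginyl enzyme Nars by 1.26 and the cysteinyl enzyme Cars by 1.01. Over all 6 lists of the response, 34 of 66 tested genes rose and none fell, against 2.34% and 2.23% of all genes. Between 6 and 9 of the 9 regulators passed under each alternative for the early arrays and each left-out array, but 2 with no block for line. With no block the transporters, effectors, synthesis enzymes and synthetases had 0 calls each, and with the 2 h arrays alone as the early group 1, 2, 0 and 0. Leaving out single arrays gave 2 to 4, 4 to 10, 2 to 5 and 3 to 11.

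Proteasome genes rose less steeply. The 19S regulatory particle, which recognises and unfolds ubiquitinated proteins, had a change above 0 in all 16 tested members (median 0.64), and 7 passed. Psmd4, its ubiquitin receptor, read 12.42, 12.72 and 13.40 in 589bm and 11.94, 12.06 and 13.15 in 595sp. Both late arrays lay above all early ones, and the change was 0.99 (SE 0.14, adjusted p = 0.00569). The ATPases Psmc3, Psmc5 and Psmc4 rose by 1.01, 0.86 and 0.80. In the 20S core all 11 tested members were above 0 (median 0.44) but only Psmb7 and Psmb3 passed, both at 0.56. For both lists, the share of rises over all genes tested was 2.34%.

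Psmb5, which carries the site bortezomib binds, read 10.12, 9.64 and 10.20 in 589bm and 9.44, 9.56 and 9.33 in 595sp, a difference of 0.08 (SE 0.18, adjusted p = 0.886) with overlapping groups. Nfe2l1, the factor that raises proteasome genes, rose by 0.96 (adjusted p = 0.00837) from 9.77 to 9.94 early to 11.02 and 10.63 late, and the assembly chaperone Psmd5 by 0.84. All 5 immunoproteasome genes were below 0 (median -0.40) and none passed. The 20S list had 0 calls under median scaling, with the 2 h arrays alone, with no block, with all 10 sensitive arrays in the fit and without any single array other than the 589bm 2 h array, without which it had 9. The 19S list had 0 with the 2 h arrays alone, with no block or without the 595sp 2 h array, 2 or 3 without the other arrays except the 589bm 2 h array, and its median lay between 0.52 and 0.73 in every fit run.

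Of the ubiquitin and p97 system, which extracts and delivers tagged proteins, 4 of 10 tested genes rose, against 2.34% of all genes. Zfand2a, an arsenite-induced proteasome partner, read 8.89, 9.80 and 11.11 in 589bm and 9.47, 10.24 and 11.69 in 595sp. It had climbed at 2 h in both lines and climbed again by 8 h, for a change of 1.80 (SE 0.27, adjusted p = 0.00738). The p97 cofactors Ufd1, Nsfl1c and Nploc4 rose by 1.24, 0.81 and 0.76. The list had 0 calls with no block or the 2 h arrays alone, 1 without either 8 h array, and 2 without either 0 h array or the 595sp 2 h array.

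Sqstm1 (p62), the receptor that links ubiquitinated cargo to autophagy, went from between 10.41 and 10.91 early to 12.75 and 12.62, a rise of 1.94 (SE 0.16, adjusted p = 0.000467). Gabarapl1 and Atg12, which act in autophagosome formation, rose by 1.38 and 0.82, and the other 13 tested genes of autophagy and lysosome did not pass. Among NRF2 targets 4 of 19 rose, against 2.34% of all genes. Gclm, a subunit of the first enzyme of glutathione synthesis, rose by 1.41 and the NRF2 partner Mafg by 1.06. Heme oxygenase Hmox1 rose by 0.91 and Nfe2l2 (NRF2) by 0.71. With the 2 h arrays alone the autophagy and NRF2 lists had 1 call each, with no block 1 and 0, and with single arrays left out 1 to 4 and 1 to 5. In the ER, 1 of 21 genes of ER chaperones and ER-associated degradation passed: Sel1l, the scaffold of the degradation complex, at 0.69 (adjusted p = 0.0399). The change was above 0 for 18 of the 21, with a median of 0.35. Hspa5 (BiP), the ER Hsp70, read 7.35, 6.55 and 7.96 in 589bm and 7.38, 7.44 and 7.05 in 595sp, opposite ways in the lines, for a difference of 0.32 (adjusted p = 0.647). Xbp1, the factor of the ER response that plasma cells need, differed by 0.75 (SE 0.19, adjusted p = 0.0657).

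**Figure D3:**
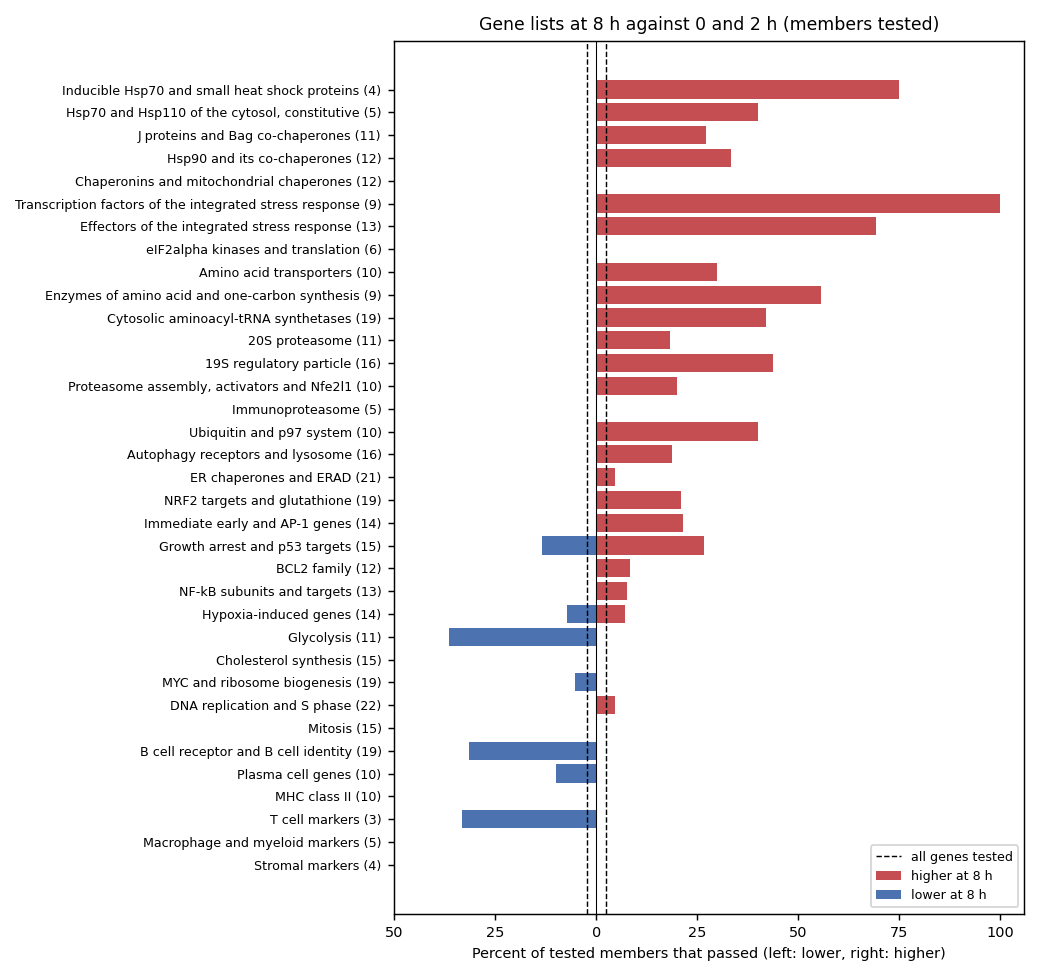
Percent of tested members of each gene list that passed, higher to the right and lower to the left, with the number tested in parentheses and dashed lines at the shares of all genes (2.34% and 2.23%). Bars for stress response regulators and inducible chaperones are longest on the right, and those for glycolysis, T cell markers (1 of 3) and B cell identity on the left.

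Growth arrest genes moved both ways. Gadd45a, which arrests damaged cells, went from between 7.61 and 8.51 to 10.31 and 10.08, a rise of 2.09 (SE 0.17, adjusted p = 0.000353). The cyclin kinase inhibitor Cdkn1a rose in each line from its own level, from 7.95 and 8.38 to 9.59 in 589bm and from 10.29 and 10.13 to 11.18 in 595sp, by 1.19 (adjusted p = 0.00694). Gadd45g rose by 1.03. Sesn1, a sestrin that p53 controls, fell by 1.21 (adjusted p = 0.00294) while Sesn2 rose, as given above. Of 15 tested genes of this list 4 rose and 2 fell, against 1 and 0 with the 2 h arrays alone and 0 of either with no block. The shares over all genes tested were 2.34% for rises and 2.23% for falls.

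In the BCL2 family 1 of 12 passed, the BH3-only gene Pmaip1 (NOXA), at 7.91, 7.90 and 8.82 in 589bm and 7.81, 7.87 and 8.58 in 595sp, a rise of 0.83 (SE 0.14, adjusted p = 0.0125). Another Pmaip1 probe changed by 0.27. Mcl1, a survival partner of NOXA, differed by -0.16 (adjusted p = 0.615). The transgene names Bcl2l1 and Myc gave 0.04 (adjusted p = 0.921) and -0.27 (adjusted p = 0.398), and whether their probes read the transgenes was not tested. Of immediate early genes Klf6, Ier3 and Dusp1 rose by 1.24, 0.92 and 0.83 (3 of 14), and of NF-kB genes the receptor Cd40 by 0.76 (1 of 13). The share of rises over all genes tested was 2.34%.

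A pair of small nucleolar RNA host genes stood among the largest rises. Snhg12 read 10.74, 11.08 and 13.17 in 589bm and 9.86, 10.08 and 12.03 in 595sp, a change of 2.16 (SE 0.15, adjusted p = 0.000177). Snhg5 read 10.16, 10.04 and 12.67 in 589bm and 9.98, 9.85 and 11.74 in 595sp, a change of 2.20 (SE 0.17, adjusted p = 0.000307). For both, each late array lay above every early array.

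The genes that fell were smaller in effect and more mixed. The largest were Snn (stannin) at -1.36, Rassf4, a RAS-association protein, at -1.35, the matrix protein Ltbp4 at -1.33 and Selplg at -1.33. Selplg, the P-selectin ligand PSGL-1, read 10.35, 10.30 and 8.90 in 589bm and 10.57, 10.75 and 9.43 in 595sp, with no overlap (SE 0.13, adjusted p = 0.00143). Another Snn probe changed by -0.10, so that fall rested on 1 probe, whereas both Selplg probes gave changes of similar size. Tmem64, Cnp, Pld4 and BC147527 fell by 1.32, 1.29, 1.28 and 1.25, and Atp2a3, the calcium pump SERCA3, by 1.18.

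Several falls were genes of the B and plasma cell programme. Bhlha15 (MIST1), a factor that builds the secretory apparatus, read 9.87, 9.78 and 8.67 in 589bm and 9.88, 9.51 and 8.41 in 595sp, a fall of -1.22 (SE 0.15, adjusted p = 0.00326) with -1.21 and -1.13 on its other probes. Cd22, an inhibitory co-receptor of B cells, read 8.86, 8.52 and 7.85 in 589bm and 9.34, 9.48 and 7.77 in 595sp, a change of -1.24 (SE 0.20, adjusted p = 0.0105). Tnfrsf13b (TACI), a receptor for the survival factors BAFF and APRIL, read 10.59, 10.58 and 9.47 in 589bm and 10.78, 10.66 and 9.57 in 595sp. The early arrays lay close together and both late arrays clearly below them, with a change of -1.13 (SE 0.13, adjusted p = 0.00223).

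Of 19 tested B cell identity genes 6 fell and none rose (median -0.33), beside 2.23% of all genes for falls: Cd22, the transcription factor Bcl11a (-1.10), the Fc receptor-like Fcrla (-0.92), the co-receptor Cd72 (-0.83), Cd79b and Cd52. In the plasma cell list Tnfrsf13b was the only one of 10 tested genes to pass. Its defining factors did not: Prdm1 differed by -0.11 (adjusted p = 0.724) and Irf4 by -0.29 (adjusted p = 0.332), with overlapping groups. Of the other cell types' markers, Cd3g, a T cell receptor subunit, fell by 1.03 from between 9.89 and 11.08 to 9.72 and 9.12 (adjusted p = 0.00738), while Cd3d, Cd4, Cd5 and Cd8a were among the dimmer probes, and 0 of 5 macrophage, 0 of 2 erythroid and 0 of 4 stromal markers passed. The summed log2 level of the 4 kept B cell markers was 34.9 to 35.4 early and 32.6 to 33.6 late, that of the 3 T cell markers 23.0 to 26.6 and 22.3 to 25.3, and that of the 5 macrophage markers 33.7 to 38.9 and 35.1 to 36.0; their part in the falls was not tested. In these bulk samples fewer cells of a type and less RNA per cell cannot be told apart. Of the 6 B cell calls 0 held without the 595sp 0 h array, without the 595sp 2 h array, with no block, or with the 2 h arrays alone as the early group, and 1 held without the 589bm 0 h or the 595sp 8 h array.

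In metabolism, 4 of 11 glycolysis genes fell and none rose, against 2.23% of all genes for falls. Pfkl, the liver form of phosphofructokinase, read 11.06, 11.05 and 10.13 in 589bm and 11.41, 11.35 and 10.66 in 595sp, a change of -0.83 (SE 0.13, adjusted p = 0.00860). Pgam1, Aldoc and Hk1 fell by 0.76, 0.64 and 0.59, the last 2 with overlap between lines. Another Pfkl probe changed by -0.05, and 0 of the 4 calls held without the 589bm 0 h, the 589bm 8 h, the 595sp 0 h or the 595sp 2 h array.

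Pdk1, which diverts pyruvate from mitochondria, fell by 0.94 (adjusted p = 0.00594; another probe gave 0.05), and the collagen prolyl hydroxylase P4ha1 rose by 0.88, both in the hypoxia list of 14. Ankrd37, a hypoxia-induced gene, did not pass, and its 2 h arrays were already well below those at 0 h. It read 9.18, 8.05 and 7.56 in 589bm and 9.26, 7.65 and 6.91 in 595sp (-1.30, SE 0.41, adjusted p = 0.130). Against the 0 h arrays alone it changed by -1.99 (adjusted p = 3.31e-05). Tfrc, the transferrin receptor, fell by 1.16 (adjusted p = 0.00287), the single call among 19 genes of MYC and ribosome biogenesis. Thymidylate synthase Tyms rose by 0.67, the single call among 22 S phase genes. Of cholesterol synthesis genes 0 of 15 passed, of mitosis genes 0 of 15 and of MHC class II genes 0 of 10. Over all genes tested 2.34% rose and 2.23% fell, so a single call in a list of this size says little about the list.

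The step between 0 and 2 h is given as a description. The 8 h contrast does not use its direction, but it forms part of the error of the test, so genes that passed tend to have a small step (Ankrd37, with a large one, did not pass). Of the 91 genes with a rise of over 1, 53 (58.2%) were higher at 2 h than at 0 h in both lines, against 30.4% of all genes tested. Their median step was 0.21 in 589bm and 0.11 in 595sp, and the choice of genes bears on that size. Of all 276 genes that rose, 43.8% were higher at 2 h in both lines. Of the 39 genes with a fall of over 1, 11 (28.2%) were lower at 2 h in both lines. Of all 263 genes that fell, 23.6% were, against 23.5% of all genes. The step has 1 array per time and line, so no test was made.

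**Figure D4:**
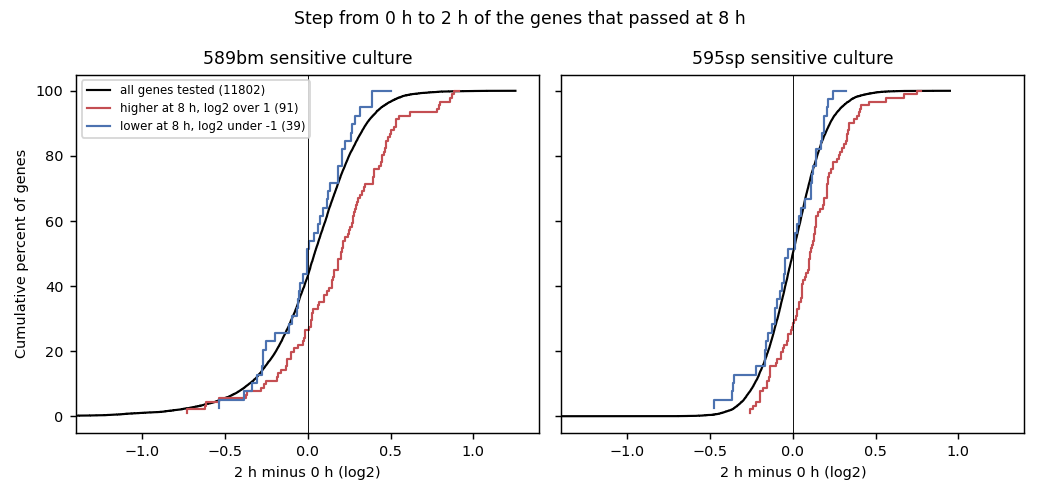
Cumulative percent of genes against the log2 step from 0 h to 2 h in each sensitive culture, for all genes tested (black), the 91 genes with a rise of over 1 at 8 h (red) and the 39 with a fall of over 1 (blue). The red curve lies to the right of the black one in both lines, and the blue curve follows the black one more closely.

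The 2 lines were then set against each other. No gene passed for a difference in response between 589bm and 595sp by limma (smallest adjusted p = 0.152), while 1101 of 11802 genes had an unadjusted p under 0.05. The nearest were Slc7a11 and Sgk1. Slc7a11, the cystine transporter and a known ATF4 and NRF2 target, read 6.52, 6.64 and 6.60 in 589bm and 6.85, 6.96 and 9.27 in 595sp. It was flat in 589bm and high on 1 array of 595sp, a difference in response of -2.34 (SE 0.26). Sgk1, a serum and glucocorticoid induced kinase, read 7.16, 7.13 and 7.20 in 589bm and 8.60, 8.70 and 10.96 in 595sp, a difference of -2.26 (SE 0.26). Rpl22l1 and Ddc had differences of 1.83 and 1.70 (adjusted p = 0.518 for each). Among the genes that rose, the median change was 0.82 in 589bm and 0.86 in 595sp. Both Slc7a11 and Sgk1 passed with no background correction, with the authors' deposited table and with all probes kept.

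The resistant cultures of the same lines share no array with this comparison. Their changes mostly had the same sign: of the 276 genes that rose in the sensitive cultures, 255 (92.4%) had a change above 0 in the resistant ones, against 47.9% of all genes tested. Calls for the resistant cultures came from a joint fit with the sensitive arrays (5 residual degrees of freedom). By that fit, 67 genes (0.568%) were higher and 85 (0.720%) lower in the resistant cultures at 8 h. Of these, 52 and 51 were among the sensitive cultures' 276 and 263. The fit takes its spread from both sets of arrays, so these shared calls are not independent of the sensitive comparison. The median change of the 276 genes was 0.83 in the sensitive and 0.43 in the resistant cultures, and that of the 263 genes was -0.78 and -0.46. These genes were chosen on the sensitive arrays, which favours larger values there. Among the 67 and 85 genes that passed in the resistant cultures, the medians were 1.02 and -0.77 in the sensitive and 0.92 and -0.80 in the resistant cultures. Those genes were chosen on the changes of the resistant arrays, which favours larger values there. Neither set of medians can therefore decide how general a smaller resistant response was.

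A smaller response in the resistant cultures passed for 13 genes (0.110%) and a larger one for 0, by limma over 11 arrays. Over both directions, 1030 genes had an unadjusted p under 0.05 in either direction. Hspa1a in the resistant cultures read 6.35 at 0 h and 7.81 at 8 h in 589bm, and 6.07, 6.62 and 7.64 in 595sp. Both resistant late arrays were above their early ones and well below the sensitive late arrays, a difference in response of -2.64 (SE 0.24, adjusted p = 0.00112). Trib3 read 7.76 and 9.64 in resistant 589bm and 7.77, 7.91 and 9.78 in resistant 595sp, a difference of -1.89 (SE 0.24, adjusted p = 0.00945). Ddit3 read 7.80 and 8.30, and 7.41, 7.69 and 8.57, a difference of -2.09 (SE 0.30, adjusted p = 0.0142).

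Snhg12 read 10.71 and 10.94 in resistant 589bm and 11.02, 10.96 and 11.38 in resistant 595sp, with a difference of -1.84 (SE 0.19, adjusted p = 0.00267), and its resistant change of 0.32 did not pass (adjusted p = 0.323). Hspa1b, Nupr1, Cebpb, Snhg5 and Dnajb1 had differences of -2.07, -1.70, -1.54, -1.69 and -1.11, and Ypel5, Angptl6, Csprs and Mib2 made up the 13. Not all stress genes showed one: Atf4 changed by 1.55 in the resistant cultures and 1.12 in the sensitive ones (difference 0.42, SE 0.24, adjusted p = 0.650), and Chac1 by 2.22 and 2.95 (difference -0.73, SE 0.39, adjusted p = 0.631). In the 19S list 6 of 16 genes were higher in the resistant cultures, against 0.568% of all genes, and no difference between cultures passed. The resistant 589bm 2 h array carried almost no signal and was left out, and with it kept 0 genes passed. Without the sensitive 589bm 2 h array 231 genes passed. The response in the resistant cultures was more positive for 157 of them and more negative for 74.

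**Figure D5:**
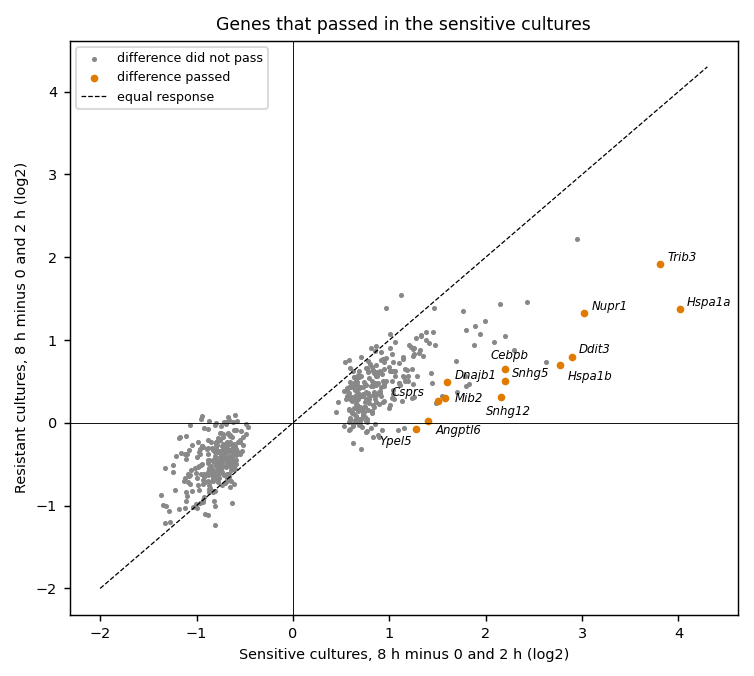
Log2 change at 8 h in the sensitive (horizontal) against the resistant cultures (vertical) for the 539 genes that passed in the sensitive cultures, with the 13 genes whose difference passed in orange and a dashed line of equal response. Most genes lie between the horizontal axis and the dashed line, and Hspa1a and Trib3 lie farthest to the right.

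The promoter motifs were counted over the genes that passed, in the 250 bases before to 50 after each start, on both strands. TGATGNAA was in 7.02% of the promoters of all genes that rose, in 12 of 102 (11.8%) of those with a rise of over 1, in 2.43% of those of genes that fell, in 2.37% of those of all genes tested and in 3.97% of all 32851 promoters. GAANNTTC was in 7.37%, 11.8%, 5.90%, 6.06% and 7.86% of the same groups. Over all genes that rose, its share was above that of genes tested and below that of all promoters. This core with 1 more GAA or TTC unit 2 bases away was in 2.11% (6 of 285), 3.92% (4 of 102), 0.694%, 0.446% and 0.603%. The antioxidant response element core TGACNNNGC was in 15.4%, 23.5%, 14.2%, 14% and 12.4%, and the hypoxia response element core ACGTG in 26.0%, 28.4%, 25.3%, 24.5% and 19.6%. Genes can have several promoters in these counts, and the motifs may overlap each other. A match is a run of letters and not a measured binding site.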

How the data were processed

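The authors deposited linear intensity per probe for 20 Illumina arrays, non-normalized and, in a second table, quantile-normalized (from the values: every array has a median of 177.44 there). The software is not given in the sources used here, and no detection p-values were used. Intensities of 19 arrays were corrected with normexp (offset 50), quantile-normalised and taken to log2 with limma 3.58.1 in R 4.3.3; the resistant 589bm 2 h array was left out because 0.144% of its probes exceeded 2 times its median (13.4% to 20.3% on the others). The brighter 50% of 45281 probes were tested (lmFit and eBayes with an intensity trend). The design had 8 h against 0 and 2 h with line as a block (3 residual degrees of freedom), the line by 8 h interaction (2), and resistant minus sensitive with culture as a block (5). Calls for the change in the resistant cultures came from the last of these fits. Cultures of a line are paired by its name. In the sensitive cultures, deviations of same-line arrays from the time means correlated at 0.631 or above. With 2 lines that value is the same for both by construction. It does not bear on the pairing of sensitive with resistant cultures. A gene is its brightest kept probe; of all probes 34885 have 1 symbol, 18 several and 10378 none, so Hsf1 has no value. Labels disagree for the 5 resistant 595sp arrays, whose title, source and description were followed. Named genes were the 14 largest rises, the 12 largest falls, up to 4 per list of 37 lists, fixed genes and those leading the other comparisons. The members and lists were chosen with earlier results of these data known. The number of arrays limits the precision. Scripts were tested on simulated data.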

Additional observations from a re-analysis of the deposited data

Results flagged for a closer look

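Among the 4 early arrays, 1 lay far from the others for 2 named genes: Hspa5 at 6.55 on the 589bm 2 h array and Ufd1 at 7.21 on the 589bm 0 h array. Chance marks about 1 in 20 such groups. The response at 8 h differed between resistant and sensitive cultures by the limma contrast for 9 named genes, each smaller in the resistant cultures: Hspa1a by -2.64, Ddit3 by -2.09, Hspa1b by -2.07, Trib3 by -1.89, Snhg12 by -1.84, Nupr1 by -1.70, Snhg5 by -1.69, Cebpb by -1.54 and Dnajb1 by -1.11.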

How the results depend on the processing

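Sensitive 8 h against 0 and 2 h gave 539 genes. It gave 28 with the 2 h arrays alone as the early group, 6 with no replicate block for line, 259 with 10 sensitive arrays in the fit, and 93 to 1509 with single arrays left out; other settings gave 477 to 649. The difference between lines gave 0 genes, 2 (Slc7a11, Sgk1) with no background correction, 2 with the authors' quantile-normalized table and 2 with all probes kept, and 0 to 1774 with single early arrays left out, the most without the 589bm 0 h array; a fit then has 1 residual degree of freedom. Its 8 h arrays cannot be left out. Resistant minus sensitive gave 13 genes, 8 under median scaling, 0 with the resistant 589bm 2 h array kept (84 at an unadjusted p under 0.05), 25 with 0 h arrays alone as early (5 higher, 20 lower), and 1 to 231 with single arrays left out; 1 remained without the resistant 589bm 0 h or 8 h array and 231 (157 higher, 74 lower) passed without the sensitive 589bm 2 h array. Dnajb1 turned to 0.0497 in that contrast with the 589bm 2 h array kept. The cause was not tested. Of 88 named genes that passed, 82 missed the threshold with no block, 69 with the 2 h arrays alone and 4 with the 0 h arrays alone. Sqstm1, Bag3, Hspa1b, Ddit3, Trib3 and Hspa1a passed under every alternative run. Of these 88, 42 have several kept probes; all probes shared a sign for 37 and all passed for 16. Low intensity limits Hspa5, Prdm1, Hmox1 and the early values of Hspa1a, Hspa1b, Hspb1 (in 589bm) and Slc7a11, whose changes depend on the background correction: the inducible chaperone list had a median of 2.10 with none and 3.13 with an offset of 16, against 2.70.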

Other observations

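Genes of the following groups were picked after their values were seen. All 3 D-type cyclins, which carry cells through G1, were lower at 8 h by limma: Ccnd1 by -1.12 (adjusted p = 0.0288), Ccnd2 by -0.93 (adjusted p = 0.00696) and Ccnd3 by -0.81 (adjusted p = 0.0105). Other probes gave -1.19 and -1.11 (Ccnd1), -0.32 and -0.96 (Ccnd2) and -0.53 (Ccnd3). Ccnd1 changed by -1.66 in 589bm and by -0.57 in 595sp. In 595sp its intensity was low, at 7.37, 7.27 and 6.75 at 0, 2 and 8 h. In the resistant cultures Ccnd1 changed by -1.03 and Ccnd2 by -0.96, and Ccnd3 by -0.40, which did not pass (adjusted p = 0.182). Further B cell surface genes were lower too: Cd180 by -1.12, Siglecg by -0.93 and the BAFF receptor Tnfrsf13c by -0.89. Their other probes gave -0.50 and -0.77 (Cd180) and -0.46 (Siglecg). Cd180 changed by -0.62 in 589bm, at low intensity (7.08, 7.27 and 6.55), and by -1.62 in 595sp. Beside Snhg12 and Snhg5, Snhg16 rose by 1.71, Snhg17 differed by 0.84 (adjusted p = 0.0576) and Snhg10 by 0.10.

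The lipid enzymes Scd1 and Elovl6, which desaturate and lengthen fatty acids, changed by -1.06 and -0.97 in the sensitive cultures, and Scd1 by -0.03 in the resistant ones, a difference that did not pass (1.03, adjusted p = 0.161). The death genes Mlkl and Casp1 rose by 1.26 (0.12 on another Mlkl probe) and 0.82, Dedd2 by 1.88, and the ubiquitin hydrolase Uchl1 by 1.31. The activation marker Cd69 rose by 1.89 on 1 probe and 0.18 on another.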
